A study of Mus musculus with 8 samples.

Results

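Notch receptors, their ligands, nuclear partners and targets were examined in splenic cDC1, the type 1 conventional dendritic cells that present antigen to CD8 T cells. The genes were the 10 named in the rule for this set, chosen by symbol in the platform annotation and not by their values: Notch1, Notch2, Notch3, Notch4, Dll1, Jag1, Rbpj, Maml1, Hes1 and Dtx1. Each had 1 probe set, and all 10 were found among 19505 named genes tested. The arrays came from naive wild-type C57BL/6 mice, with 4 arrays of cDC1 gated as TMRM/MG-high and 4 of cDC1 gated as TMRM/MG-low. TMRM is a dye that accumulates in mitochondria with their membrane potential, and the labels do not spell out MG. All arrays share the strain, the tissue and the sort of cDC1, and no allele, agent, age or pooling of animals is given. Replicate numbers 1 to 4 occur in both fractions, but no label says what a number marks, so the p-values rest on a spread between arrays that could be technical.

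Notch receptors are cut after they bind a ligand on a neighbouring cell, first by an ADAM protease and then by gamma-secretase. The freed intracellular domain enters the nucleus, joins the DNA-binding protein RBPJ and a Mastermind coactivator, and turns on genes such as Hes1 and Dtx1. In the spleen, Notch2 signalling is known for supporting the Esam-positive cDC2 and marginal zone B cells, with Dll1 on stromal cells as the ligand.

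Of the 10 genes, Rbpj rose and Notch2 fell in the TMRM/MG-high fraction, by 1.25-fold and 1.26-fold, and the other 8 did not pass the test (limma, Benjamini-Hochberg adjusted p under 0.05 over all 22206 probe sets). Of all probe sets tested, 8.25% were called, 5.28% as higher and 2.96% as lower. Notch1, Notch4 and Hes1 were at lower values in the high fraction and Dll1 at higher ones, with adjusted p between 0.0607 and 0.081, and Notch3, Jag1 and Maml1 differed by 0.0083, 0.036 and 0.034 on the log2 scale. The median difference of the 10 was -0.14, beside 0.0093 over all probe sets, with 5 genes on each side of 0. An unadjusted p under 0.05 was found for 6 of the 10, beside 25.5% of all probe sets. The fractions did not overlap for 4 of the 10 (Notch1, Notch2, Rbpj and Hes1), beside 16.1% of all probe sets. Of these Rbpj was on the higher side (9.7% of all probe sets) and the other 3 on the lower side (6.37%). All values below are log2 RMA signals or differences of them, high minus low, and levels of different probe sets are not compared with each other. In a sorted population, fewer cells of a type and less RNA per cell cannot be told apart.

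**Figure D1:**
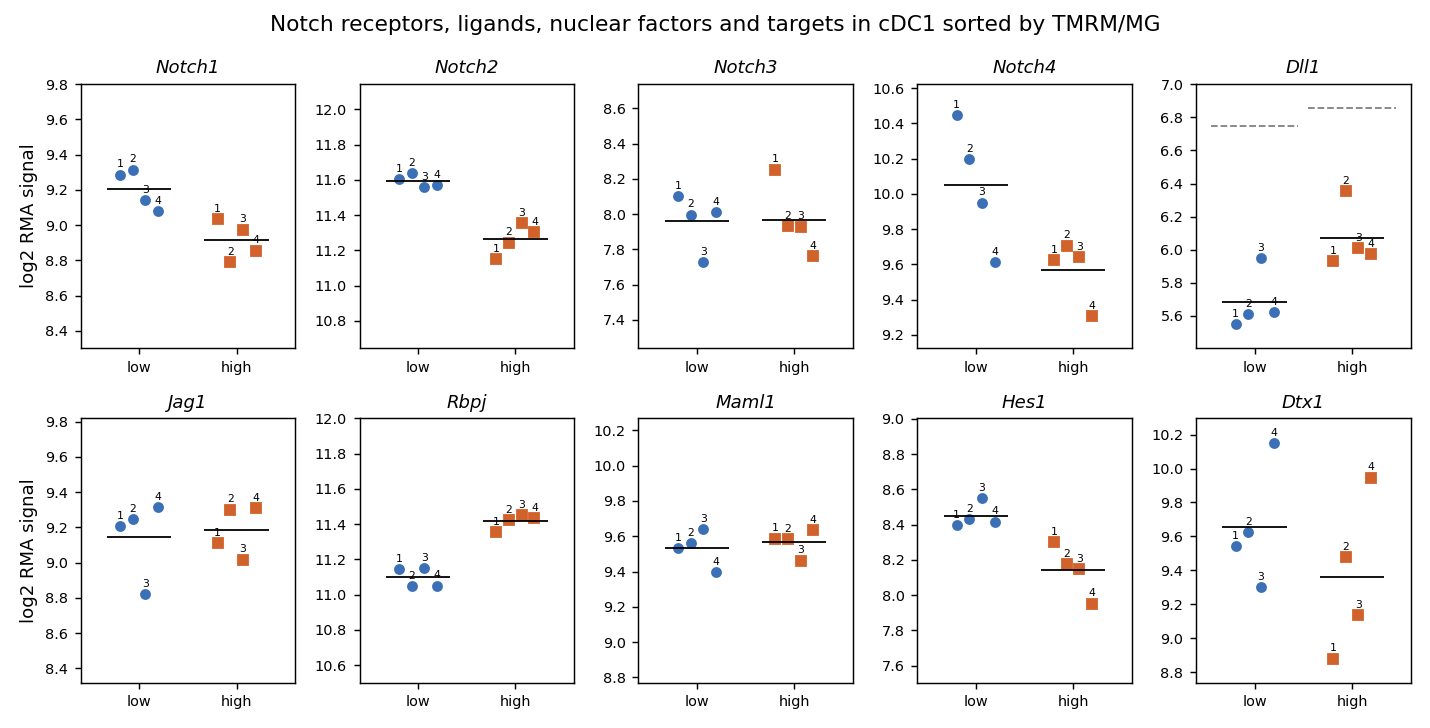
Log2 RMA signal of the 10 genes on each array of the TMRM/MG-low (circles) and TMRM/MG-high (squares) fraction, n = 4 each, with replicate numbers above the points and the mean as a line. Each panel has its own vertical range. The dashed lines in the Dll1 panel are the negative control medians, 6.75 (low) and 6.86 (high), which all 8 Dll1 values lie under. The fractions are separate for Notch1, Notch2, Rbpj and Hes1.

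Among the receptors, Notch2 fell. Its signal was 11.60, 11.64, 11.56 and 11.57 in low replicates 1 to 4, and 11.15, 11.24, 11.35 and 11.30 in high replicates 1 to 4. Every low array was above every high array, with 0.203 between the nearest arrays. The means were 11.59 ± 0.037 and 11.26 ± 0.087 (SD, n = 4 each), a difference of -0.33 (SE 0.079, 95% interval -0.50 to -0.16; limma adjusted p = 0.0287). On each array 98.6% to 98.9% of the 5222 negative (intron) controls were dimmer, so Notch2 was measured well above them.

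Notch1, the receptor that commits lymphoid progenitors to the T lineage, was 9.29, 9.32, 9.14 and 9.08 in the low and 9.03, 8.79, 8.97 and 8.86 in the high arrays. Between 83.7% and 91.2% of the negative controls were dimmer than Notch1 on an array. The fractions did not overlap, but only 0.0444 lay between low replicate 4 and high replicate 1. The difference of -0.29 (SE 0.091, 95% interval -0.49 to -0.094) missed the threshold (limma adjusted p = 0.0688). Its size is close to that of Notch2, and whether the pair differ in response was not tested.

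Notch4, a receptor best known from endothelium, had the largest difference of the 10 and one of the widest spreads. Its signal was 10.45, 10.20, 9.95 and 9.61 in the low and 9.62, 9.71, 9.64 and 9.30 in the high arrays. Low replicate 4 lay within the range of the high arrays, and the other 3 low arrays were above it. The difference was -0.48 (SE 0.16, 95% interval -0.83 to -0.14; limma adjusted p = 0.081), and in the omissions of 1 array it ran from -0.63 to -0.35. Only the omission of low replicate 4 gave a call (-0.63, adjusted p = 0.0346) and the 7 other omissions gave none, the weakest being those of low replicate 1 (-0.35, adjusted p = 0.19) and high replicate 4 (-0.395, adjusted p = 0.188).

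Notch3, a receptor of vascular smooth muscle and pericytes, was interleaved between the fractions. Its signal was 8.10, 7.998, 7.73 and 8.01 in the low and 8.25, 7.93, 7.93 and 7.76 in the high arrays, and both the highest and the next-to-lowest value were high arrays. The difference was 0.0083 (95% interval -0.25 to 0.26; limma adjusted p = 0.974), and its sign turned with median centring (-0.0055). Between 66.5% and 77.1% of the negative controls were dimmer than Notch3 on an array.

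Of the ligands, Dll1 was at or near background. Its signal was 5.55, 5.61, 5.95 and 5.62 in the low and 5.93, 6.36, 6.01 and 5.97 in the high arrays. All 8 values were below the negative control median, with 26.6% to 38.0% of the controls dimmer, so the size of the difference (0.39, SE 0.12; limma adjusted p = 0.0651) is uncertain. The fractions overlapped only through low replicate 3, which was above high replicate 1, and without low replicate 3 Dll1 was called (0.47, adjusted p = 0.0236). No other gene of the 10 had a mean below that median.

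Jag1, a ligand of the Jagged class, did not separate the fractions. It was 9.21, 9.25, 8.82 and 9.31 in the low and 9.11, 9.30, 9.02 and 9.31 in the high arrays, and low replicate 3 was the lowest of the 8. The difference was 0.036 (95% interval -0.22 to 0.29; limma adjusted p = 0.884), and it turned to -0.0071 after quantile normalization of the tested probe sets.

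Among the nuclear factors, Rbpj rose. RBPJ is the DNA-binding protein through which all Notch receptors act, and without the receptor's intracellular domain it recruits corepressors. Rbpj was 11.14, 11.05, 11.15 and 11.05 in the low and 11.36, 11.42, 11.45 and 11.43 in the high arrays. Every high array was above every low array, with 0.206 between the nearest. The means were 11.10 ± 0.057 and 11.42 ± 0.041 (SD, n = 4 each), a difference of 0.32 (SE 0.075, 95% interval 0.15 to 0.48; limma adjusted p = 0.0279). Between 98.3% and 98.9% of the negative controls were dimmer. The call was lost after quantile normalization of the tested probe sets (0.24, adjusted p = 0.0575).

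Maml1, a Mastermind coactivator, was 9.53, 9.56, 9.64 and 9.39 in the low and 9.59, 9.58, 9.46 and 9.64 in the high arrays. The arrays of both fractions were interleaved. The difference was 0.034 (95% interval -0.15 to 0.22; limma adjusted p = 0.842), and it turned to -0.016 after quantile normalization.

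The promoters of the called genes are shown because Rbpj and Notch2 moved in opposite directions and because RBPJ itself reads a known sequence, the core TGGGAA. The stretches are the 250 bases before the annotated start, 5′ to 3′ on the gene's strand, from RefSeq (GRCm38.p6). Rbpj lies at chr5:53590096-53590345 and Notch2 at chr3:98013288-98013537, both on the plus strand. Capitals mark TGGGAA or its reverse complement TTCCCA.
Rbpj: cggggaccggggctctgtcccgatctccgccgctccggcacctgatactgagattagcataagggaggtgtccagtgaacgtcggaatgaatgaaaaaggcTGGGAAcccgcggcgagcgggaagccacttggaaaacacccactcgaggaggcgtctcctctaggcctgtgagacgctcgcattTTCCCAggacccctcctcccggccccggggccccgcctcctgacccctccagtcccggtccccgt
Notch2: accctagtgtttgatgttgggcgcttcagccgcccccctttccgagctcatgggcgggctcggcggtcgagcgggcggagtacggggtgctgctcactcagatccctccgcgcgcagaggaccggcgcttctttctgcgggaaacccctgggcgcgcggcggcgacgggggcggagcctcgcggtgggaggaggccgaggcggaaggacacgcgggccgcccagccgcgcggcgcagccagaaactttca
In the Rbpj stretch TGGGAA starts 149 bases and TTCCCA 65 bases before the start site, and these letters are not in the Notch2 stretch. Both stretches are rich in CG, with 21 CG pairs in Rbpj and 34 in Notch2. RefSeq promoter windows of 300 bases, which run 50 bases past the start, were found for 9 of the 10 genes, 11 windows in all. TGGGAA or TTCCCA, which do not overlap each other in these stretches, was in 2 of the 11 windows (18.2%), beside 25.6% of all 32851 windows. The 2 windows are overlapping ones of Rbpj and share the TTCCCA. Among other Notch target genes with values here, 5 of 12 windows held the letters (41.7%). A match is a run of letters and was not tested as a binding site.

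Of the targets, Hes1, a repressor of the bHLH family, was 8.40, 8.43, 8.55 and 8.42 in the low and 8.30, 8.18, 8.15 and 7.95 in the high arrays. Between 70.2% and 82.0% of the negative controls were dimmer than Hes1 on an array. All 4 high arrays were below all 4 low arrays, with 0.0966 between the nearest. The difference was -0.30 (SE 0.091, 95% interval -0.50 to -0.11) and missed the threshold (limma adjusted p = 0.0607). It was called after quantile normalization (-0.32, adjusted p = 0.0424) and without high replicate 1 (-0.36, adjusted p = 0.0393).

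Dtx1, a Deltex protein that binds the Notch intracellular domain and is itself a Notch target, varied more within fractions than between them. It was 9.54, 9.63, 9.30 and 10.15 in the low and 8.88, 9.48, 9.14 and 9.95 in the high arrays. Replicate 4 was the highest of each fraction, and the fractions overlapped over most of their range. The difference was -0.30 (SE 0.22, 95% interval -0.77 to 0.18; limma adjusted p = 0.437), so the unblocked test did not resolve its direction. Each high array was below the low array of the same number. With the replicate number as a block the SE was 0.11 and the 95% interval -0.54 to -0.055, still not called (limma adjusted p = 0.119). No label says what a number marks, so this is no paired result. The size of the Dtx1 difference rested on single arrays. Omitting low replicate 4 gave -0.13, omitting high replicate 1 gave -0.136 and omitting high replicate 4 gave -0.49. None of the 8 omissions called Dtx1 (limma adjusted p 0.162 to 0.758).

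The calls of Notch2 and Rbpj rested on most of the arrays. Omitting low replicate 1, 2 or 4, or high replicate 2, 3 or 4, ended each call, and omitting low replicate 3 or high replicate 1 kept it. The differences moved little, from -0.36 to -0.29 for Notch2 (limma adjusted p 0.0311 to 0.0838) and from 0.30 to 0.34 for Rbpj (adjusted p 0.027 to 0.0849). The number of probe sets called over the whole table fell in the same 6 omissions, and power is lower with 7 arrays.

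**Figure D2:**
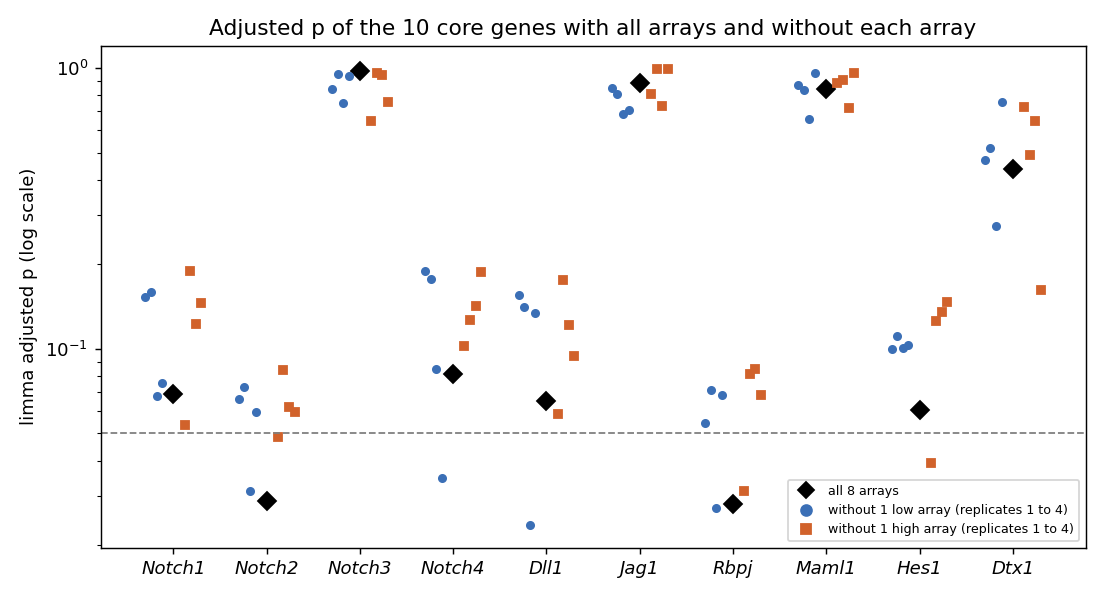
Limma adjusted p (log axis) of the 10 genes with all 8 arrays (diamonds), without each low array (circles, replicates 1 to 4 from left to right) and without each high array (squares, likewise), with the threshold of 0.05 as a dashed line. Notch2 and Rbpj lie under the line with all arrays and in 2 of 8 omissions each, and Notch1, Notch3, Jag1, Maml1 and Dtx1 lie above it throughout.

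The other genes of the pathway were read from 7 lists of its machinery. Of 91 genes beyond the 10, 4 rose and 3 fell (7.69% called, beside 8.25% of all probe sets), and their median difference was 0.035. That share is near the background, so the pathway as a whole is not set apart by its number of calls.

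Receptor proteolysis held 2 rises and no fall among 10 genes, with a median of 0.19. Aph1a, a subunit of gamma-secretase, was 10.01, 10.40, 10.49 and 10.41 in the low and 10.75, 10.91, 10.94 and 10.98 in the high arrays (0.57, SE 0.11; limma adjusted p = 0.0148). The fractions did not overlap, and the call was kept in 7 of 8 omissions and lost without high replicate 3 (adjusted p = 0.0505). Adam17, a protease that can shed receptors, was 10.68, 10.45, 10.99 and 10.62 in the low and 10.93, 11.21, 11.09 and 11.18 in the high arrays (0.41, SE 0.12; adjusted p = 0.0493). Low replicate 3 lay above high replicate 1. The Adam17 call was kept in 2 omissions, those of low replicate 3 and high replicate 1, and lost after quantile normalization (adjusted p = 0.0733), with median centring (0.0615), with the replicate number as a block (0.0623) and in the 6 other omissions. Adam10, the protease that makes the ligand-induced cut of Notch, had a difference of 0.17 and did not pass (adjusted p = 0.312). Of the other gamma-secretase subunits measured, Psenen (0.26, adjusted p = 0.0688), Aph1c (0.29, adjusted p = 0.0784), Aph1b (0.19) and Psen2 (0.20) were not called, nor was Ncstn (-0.060).

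Coactivators and corepressors of RBPJ held 2 rises and no fall among 21 genes, with a median of 0.084. Ccnc, the cyclin of the Mediator kinase that phosphorylates the Notch intracellular domain, was 9.27, 9.31, 9.63 and 9.01 in the low and 9.79, 10.20, 10.15 and 10.17 in the high arrays (0.77, SE 0.14; limma adjusted p = 0.0104). Hdac2, a histone deacetylase found in corepressor complexes, was 9.05, 9.41, 9.40 and 9.42 in the low and 9.71, 10.03, 10.01 and 9.998 in the high arrays (0.62, SE 0.11; adjusted p = 0.0104). Neither gene overlapped between fractions, and both calls held in all 8 omissions. Ccnc and Hdac2 also act outside Notch signalling. The coactivators Maml2 (0.18), Ep300 (-0.18) and Crebbp (0.082) and the corepressor Spen (-0.23) were not called.

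Receptor glycosylation held 1 fall among 12 genes, with a median of 0.041. Pofut1, which adds O-fucose to the receptor's EGF repeats, was 8.64, 9.02, 8.92 and 8.73 in the low and 8.21, 8.41, 8.35 and 8.66 in the high arrays (-0.42, SE 0.12; limma adjusted p = 0.0458). High replicate 4 lay above low replicate 1. The call was kept without high replicate 4, lost in the 7 other omissions and lost with median centring (adjusted p = 0.0521). The Fringe enzymes, which extend that fucose, had differences of -0.27 (Lfng), -0.25 (Rfng) and -0.073 (Mfng), none called.

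Ligand and receptor trafficking held 1 fall among 17 genes, with a median of 0.022. Dtx3, a Deltex family ubiquitin ligase, was 7.89, 8.17, 8.30 and 8.01 in the low and 7.65, 7.87, 7.46 and 7.64 in the high arrays (-0.44, SE 0.11; limma adjusted p = 0.0345). The fractions did not overlap. The call was kept with low replicate 1 or high replicate 2 left out, and lost in the 6 other omissions. The ligases Mib1 (0.083) and Itch (-0.16) and the Notch inhibitor Numb (-0.024) were not called.

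None of the 5 other ligands passed in limma, and 3 had an unadjusted p under 0.05. Dll4, an endothelial and thymic ligand, was 7.53, 7.43, 7.93 and 8.03 in the low and 8.19, 8.21, 7.98 and 8.19 in the high arrays (0.41, SE 0.13; limma adjusted p = 0.0791), and the non-canonical ligand Dlk2 differed by -0.29 (SE 0.096; adjusted p = 0.0822).

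Canonical target genes beyond Hes1, Dtx1, Notch1 and Notch3 held 1 fall among 16, with a median of -0.015. Myc, a growth regulator and Notch target in T lineage cells, was 10.63, 10.55, 10.59 and 10.65 in the low and 10.22, 10.20, 10.02 and 10.51 in the high arrays (-0.37, SE 0.10; limma adjusted p = 0.0481). The fractions did not overlap, but the call was kept only without high replicate 4 and was lost in the 7 other omissions and with median centring (adjusted p = 0.0509). Hes5 (-0.16), Hey1 (-0.25) and Nrarp (-0.15) were not called.

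A further list held 10 genes taken to be Notch-dependent in splenic dendritic cells, and the dependence of each was not tested. Limma called none of them, with 1 at an unadjusted p under 0.05 and a median of 0.013. The list does not hold every cDC2 marker. Tbx21, listed here as a cDC2 marker and called lower (-0.88, limma adjusted p = 0.0157), is not in it. These 10 genes therefore do not settle the state of the Esam-positive cDC2. The Tbx21 difference is near those of the T cell markers Cd3e (-0.86), Cd3d (-0.82) and Cd3g (-0.76). Which cells the Tbx21 signal came from was not tested. The adhesion molecule Esam differed by -0.17 (SE 0.087; limma adjusted p = 0.251) and the lectin Clec10a by 0.39 (SE 0.12; adjusted p = 0.065).

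**Figure D3:**
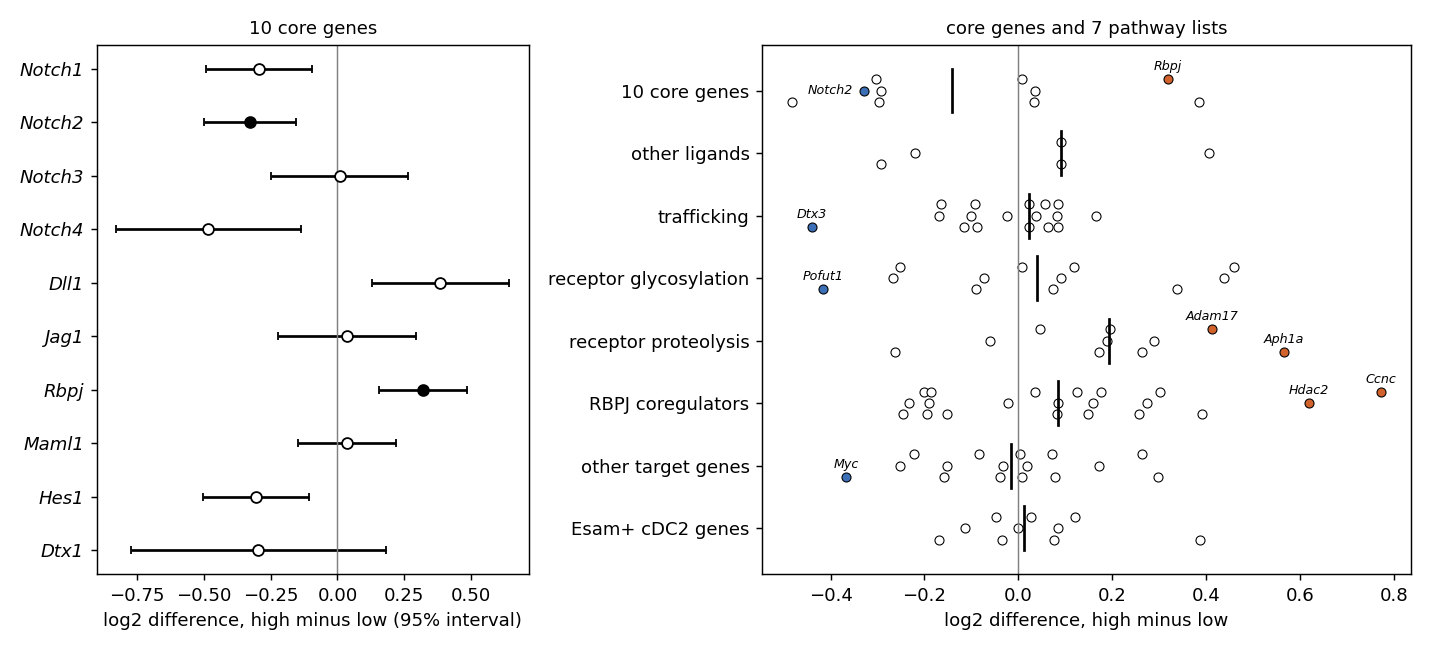
Left, log2 difference (high minus low) of the 10 genes with 95% intervals, filled where called. Right, the same difference for the 10 genes and for the genes of the 7 lists without them, 1 circle a gene, coloured and named where called (orange higher, blue lower), with each list's median as a bar. Rbpj and Notch2 are filled on opposite sides of 0, and 4 list genes are called higher and 3 lower. The row labelled Esam+ cDC2 genes is the list of genes taken to be Notch-dependent in splenic dendritic cells. Its genes were not checked as genes of Esam-positive cDC2.

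Marker lists of cell types were read on the same arrays because other cells of the spleen express Notch genes. The 12 cDC1 markers had a mean level of 11.77 to 12.04 in the low and 11.85 to 12.002 in the high arrays. Itgae (means 9.88 low, 9.675 high) and Cd24a (9.63 and 9.77) were at or below the 95th percentile of the negative controls (9.88 low, 10 high), and the other 10 markers were above it. None of the 12 was called by limma, and 3 had an unadjusted p under 0.05: Cd8a (0.31), Clec9a (-0.21) and Tlr3 (0.19). These cDC1 markers were called under some alternatives, all 3 with the intensity trend (limma adjusted p = 0.00816, 0.0125 and 0.0416), Cd8a with array weights (0.0301) and without low replicate 3 or high replicate 1, and Clec9a after quantile normalization (0.0398). Of 8 T cell markers, 5 fell, among them Cd3e (-0.86), Cd3d (-0.82) and Cd3g (-0.76), and their mean level was 8.68 to 9.24 in the low and 8.47 to 8.67 in the high arrays. The Cd3e call held in all 8 omissions, Cd3d was lost without high replicate 2 or 3, and Cd3g was lost without low replicate 1 or 2 or high replicate 2 or 3. Of 10 plasmacytoid markers, 8 rose, among them Klk1 (1.52), Siglech (1.81) and Bst2 (0.79), with mean levels of 9.26 to 9.42 and 9.99 to 10.37. Of 10 cDC2 markers 1 fell, Tbx21 (-0.88), beside Clec10a (0.39) and Itgam (-0.37), not called, with mean levels of 8.79 to 9.24 and 8.75 to 9.34. The Tbx21 call was lost without high replicate 3, and which cells its signal came from was not tested. None of 9 B cell markers was called, with 0 at an unadjusted p under 0.05 (mean level 9.49 to 9.72 and 9.43 to 9.82; Vpreb3 0.12, Ebf1 -0.13, Cd79a -0.090). Of 11 endothelial and stromal markers, Kdr rose (0.72) and Madcam1 fell (-0.36), with mean levels of 7.99 to 8.10 and 8.04 to 8.08. The Kdr call was lost without low replicate 2 or high replicate 2 or 4 (limma adjusted p 0.0523 to 0.0601). The Madcam1 call was lost in all 8 omissions (0.0543 to 0.128), with the replicate block (0.0513), after quantile normalization (0.0606) and with median centring (0.0517). Cspg4 was below the negative control median in both fractions (means 6.55 low and 6.81 high), so no size is read from its difference of 0.26. None of 8 red pulp macrophage markers was called, with 0 at an unadjusted p under 0.05 (9.83 to 10.16 and 9.71 to 10.39; C1qa 0.24, Vcam1 0.22, C1qc 0.26). Means below the negative control median in both fractions occurred in 1 cDC2 and 2 endothelial or stromal markers, and in none of the T, B, plasmacytoid or macrophage markers. By the 95th percentile used for the cDC1 markers, Cd3e, Cd3d and Cd3g were below it in both fractions. Klk1 and Siglech were below it in the low fraction and above it in the high one.

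Some of the 10 genes and some of these levels differed between the same fractions, and the part of other cells in the 10 genes was not tested. The T cell level of low replicate 3 (8.68) was near the top of the high arrays (8.67). On that array Notch2 (11.56), Notch1 (9.14), Rbpj (11.15) and Hes1 (8.55) were on the same side of the gap between fractions as the other low arrays. Dtx1 (9.30), Jag1 (8.82) and Notch3 (7.73) had their lowest low value there, and Dll1 (5.95) its highest. Without low replicate 3 the differences were -0.34 for Notch2, -0.31 for Notch1, -0.27 for Hes1 and 0.34 for Rbpj. They were -0.41 for Dtx1, -0.073 for Jag1, -0.069 for Notch3 and 0.47 for Dll1. This is a single array, and the part of T cells was not tested. The plasmacytoid markers separated the fractions on every array, as Rbpj did, so the sort and that signal cannot be told apart. Replicate 4, highest for Dtx1 in each fraction, was also highest in each for the cDC2 list (9.24 and 9.34), the plasmacytoid list (9.415 and 10.37), the red pulp macrophage list (10.16 and 10.39) and the Notch-dependent splenic genes (9.03 and 9.18). The cDC2 list and the Notch-dependent splenic genes share Esam, Clec4a4, Cd4, Mgl2 and Clec10a, so their levels are not independent.

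**Figure D4:**
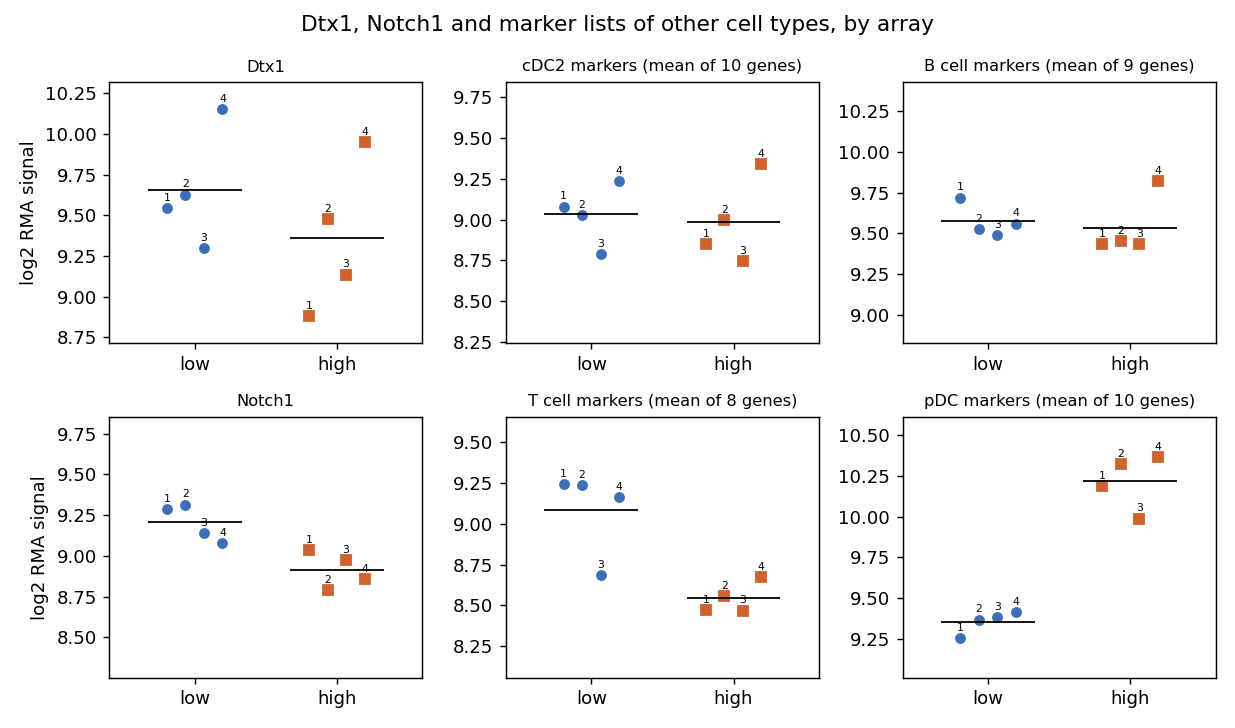
Log2 RMA signal of Dtx1 and Notch1 and mean log2 signal of 4 marker lists on each array (circles low, squares high, replicate numbers above, line at the mean, n = 4 each; each panel has its own vertical range). Replicate 4 is highest for Dtx1 and for the cDC2 and plasmacytoid markers in each fraction, as it was for the red pulp macrophage markers, and low replicate 3 (8.68) lies apart from the other low arrays in the T cell panel.

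The median signal was 8.11 to 8.16 on all arrays. The median of the positive (exon) controls separated the fractions, at 10.208 to 10.369 in the low and 10.385 to 10.489 in the high arrays. The part of this shift in the Rbpj call, which was lost after quantile normalization, was not tested. Spike-in controls separated the fractions too, with a mean level of 9.79 to 10.23 in the low and 8.88 to 9.43 in the high arrays. With that level as a covariate, limma called 0 probe sets (472 higher and 568 lower at an unadjusted p under 0.05). Because the level separates the fractions, this fit can hardly tell it from the sort, and calls were likely to be lost in any case. The SE rose from 0.079 to 0.196 for Notch2 and from 0.171 to 0.42 for Siglech. Even Klk1 (1.55) was not called (limma adjusted p = 0.966). Notch2 was then at -0.43 (95% interval -0.86 to 0.0047) and Rbpj at 0.21 (-0.20 to 0.62), neither called, and Notch1 (0.055), Notch4 (0.10) and Dll1 (-0.0021) turned sign. Notch3 moved from 0.0083 to 0.585 (95% interval 0.0665 to 1.1, unadjusted p = 0.0305 in limma) and Dtx1 from -0.30 to -0.98 (-2.15 to 0.193). The part of the spike-in level in these results was not tested.

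The genes whose profiles over the 8 arrays were nearest to the called genes were found among 17440 others. Likeness was the root mean square difference of profiles, each centred on its own mean. Genes picked for so small a difference share the called gene's direction through the choice itself. Nearest to Notch2 were Apobec3 (0.029), which restricts retroviruses, Nav1 (0.042) and Tex29 (0.044), all at lower values in the high arrays. Nearest to Rbpj were Skp1 (0.035) and Arih2 (0.036), parts of the ubiquitin system, and Ddx6 (0.037), an RNA helicase of P-bodies, all at higher values. The standard deviation of Notch2 over the arrays was 0.19 and that of Rbpj 0.18.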

How the data were processed

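Gene expression was measured on 8 arrays, 4 a fraction. The deposited values are log2 signals that the authors made with RMA in Affymetrix Expression Console 1.1, per the submitters' processing notes. RMA forces a common distribution on the arrays, which hides a shift that most transcripts share. The number of arrays limits precision. Of the deposited probe sets, 22206 were tested and controls were left out, 5222 of them negative (intron) controls. A symbol was given to 19572, several to 0 and none to 2634, and all 10 core genes matched RefSeq by Entrez ID.

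High was compared with low in limma 3.58.1 (R 4.3.3) with moderated tests, two-sided and unblocked, adjusted by Benjamini-Hochberg over all probe sets tested. A level counted as background where a fraction's mean was below its negative control median. On simulated data of 22206 probe sets, 58% of changes of 0.5 and 94% of changes of 1 (log2) were recovered, with 4 false calls among 156. No label says what a replicate number marks, so numbers were not treated as pairs. Deviations of same-numbered arrays correlated at 0.271, 0.055, 0.015 and 0.039 over all probe sets tested. Low values over all probe sets do not show that the arrays are unpaired.

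The 10 genes, lists and alternatives were chosen with earlier results of these data known. The text names the 10 genes, up to 6 called genes of each pathway list (or the 2 of smallest p), 3 genes of smallest p in each marker list and the 3 nearest profiles of each called gene. Genes named beside these, such as Adam10 and Lfng, were chosen by role after values were seen. The coregulator list holds Kyat1, a kynurenine aminotransferase, by error, and it was not called. Alternatives were a replicate block, a further quantile normalization, median centring, a filter on dim probe sets, a trended and robust variance, array weights, means over a gene's probe sets, a spike-in covariate, thresholds of 0.1 and 0.01, and omission of each array. Figures were drawn with matplotlib 3.10.9.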

Additional observations from a re-analysis of the deposited data

Results flagged for a closer look

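Among 96 groups of 4 arrays examined (each named gene and each marker list in each fraction), 9 held an array far from the other 3, and chance flags about 1 in 20 such groups. None of the 10 core genes was among them. Low replicate 3 had a mean T cell marker level of 8.683, against 9.163 to 9.244 in the other low arrays. High replicate 4 had a mean B cell marker level of 9.822, against 9.431 to 9.45 in the other high arrays, and a Cd3d signal of 9.037, against 8.58 to 8.654. High replicate 1 was the lowest high array for Ccnc (9.789, against 10.148 to 10.204) and for Hdac2 (9.715, against 9.998 to 10.03), and low replicate 1 was the lowest low array for Hdac2 (9.051, against 9.395 to 9.419). High replicate 3 was lowest for Dll4 (7.978, against 8.185 to 8.205) and for Tbx21 (7.326, against 7.797 to 7.864). High replicate 2 was lowest for Madcam1 (7.052, against 7.38 to 7.445).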

How the results depend on the processing

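Notch2 and Rbpj kept their direction under every alternative run. Neither was called with the spike-in covariate (-0.43 and 0.21) or at a threshold of 0.01 (-0.33 and 0.32), and Rbpj was not called after quantile normalization (0.24). Further calls appeared: Notch4 (-0.48) with the replicate block, with the intensity trend and at a threshold of 0.1; Dll1 with the intensity trend (0.39), with array weights (0.40) and at 0.1 (0.39); Hes1 after quantile normalization (-0.32), without the dim probe sets (-0.30), with array weights (-0.31) and at 0.1 (-0.30); and Notch1 at 0.1 (-0.29). Signs turned with the spike-in covariate for Notch1 (0.055), Notch4 (0.10), Dll1 (-0.0021), Dll4 (-0.028), Dlk2 (0.093), Adam17 (-0.12), Ebf1 (0.14), C1qa (-0.62), Vcam1 (-0.46) and C1qc (-0.94). They also turned for Notch3 with median centring (-0.0055) and array weights (-0.022), for Jag1 after quantile normalization (-0.0071) and with array weights (-0.0059), and for Maml1 after quantile normalization (-0.016). The cause was not tested, and the spike-in level separates the fractions, so the fit with that covariate can hardly tell it from the sort.

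Leaving out 1 array gave -0.36 to -0.29 for Notch2, 0.30 to 0.34 for Rbpj, -0.63 to -0.35 for Notch4, -0.49 to -0.13 for Dtx1, 0.29 to 0.47 for Dll1, -0.36 to -0.24 for Hes1, -0.086 to 0.078 for Notch3, -0.073 to 0.092 for Jag1, -0.012 to 0.071 for Maml1 and -0.20 to 0.042 for Ebf1. It gave 0 to 2 of the 10 genes called higher and 0 to 2 called lower, 3 to 6 and 0 to 2 of the 91 pathway genes, and 183 to 1680 and 218 to 793 of all probe sets.

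Of the 10 genes, counts called higher and lower were 0 and 2 after quantile normalization, 2 and 2 with the intensity trend or array weights, 1 and 2 with the replicate block or dim probe sets left out, 0 and 0 with the spike-in covariate or at 0.01, and 2 and 4 at 0.1. Of the 91 pathway genes they were 10 and 3 with the intensity trend, 7 and 3 with array weights, 3 and 1 with median centring, 0 and 0 with the spike-in covariate or at 0.01, and 10 and 5 at 0.1. Of all probe sets they were 1173 and 658 as reported, 1950 and 875 with the intensity trend, 2061 and 1174 at 0.1, 73 and 113 at 0.01, and 0 and 0 with the spike-in covariate (limma). The share called higher was 64.1% as reported and 49.8% after quantile normalization. Using the 95th percentile of the negative controls in place of their median put 7 of the 10 genes below it in both fractions, all but Notch2, Notch4 and Rbpj. The replicate block gave the same differences, kept both calls of the 10 genes, ended those of Adam17 and Madcam1, and of all probe sets called 1225 and 650. The arrays share only a number there, so this is no paired result. Dll1 was not tested with dim probe sets left out, since it is one of them.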
